A study of Mus musculus with 4 samples.

Results

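The 45 genes described here are expressed when a cell copies its DNA and divides. They were chosen by function and found by symbol: 22 belong to S phase and 23 to G2 and M phase. Every one of the 45 was listed, among 31253 genes, in the count tables of the 4 single-cell libraries. Among the 23 G2 and M genes, 18 served as the core list for calling cells. Hmgb2, Tubb4b, Cks1b, Cks2 and Stmn1, the other 5, were left out of the calls.

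The libraries hold CD45+ CD8+ T cells sorted from tumours of MB49, a mouse bladder carcinoma line, and analysed by droplet single-cell RNA-seq. Each library pooled the cells of 3 mice, and each group had 1 library. Subcutaneous tumours of C57BL/6Slac mice, 10 to 12 weeks of age, gave the WT library (wild-type hosts) and the KO library (BFAR-CD8-KO hosts). What drives the deletion in the KO mice is not stated in the labels. The Young and Aged libraries came from Rag1-deficient hosts, labelled B6.129S7-Rag1tm0Mom/J for Young and B6.129S7-Rag1tm1Mom/J for Aged. These strain labels differ in 1 character, and both were read as the same Rag1-deficient strain. The age label of both samples, 8 to 10 weeks, was read as that of the hosts, since the donors' ages differ. These hosts had received, by vein and on the day of tumour inoculation, CD8+ T cells whose donors were 8 weeks old for Young and 18 months old for Aged. A Rag1-deficient host makes no mature T or B cells of its own, so the donor cells entered an empty compartment. The kit was single cell 3' v2 for the first pair and immune profiling for the second, per the labels, so values were compared only within each of these 2 pairs. With 1 library per group there is no test of any difference, and every interval below is a 95% interval for counting error only, which does not cover differences between mice or libraries.

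In S phase the MCM helicase opens DNA at origins that Cdc6 has licensed, the PCNA clamp holds the polymerases on the template, and ribonucleotide reductase supplies nucleotides. In G2 and M phase, cyclins A and B activate Cdk1, Aurora kinases and kinesins build and check the spindle, and Cdc20 directs the anaphase-promoting complex to destroy the cyclins. E2F factors turn on the S phase genes. B-Myb and FoxM1 then turn on G2 and M genes through CHR elements, often next to CCAAT boxes bound by NF-Y. In tumours, CD8+ T cells that carry Tcf7, a factor of stem-like T cells, are known as a self-renewing reserve. Pdcd1 encodes the inhibitory receptor PD-1 and Havcr2 encodes TIM-3, both marks of exhausted T cells.

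Barcodes were kept with 1000 or more UMIs, 500 or more genes and no more than 10% of UMIs from mitochondrial genes. The libraries then held 8410 to 10538 barcodes, of which 93.0% to 96.9% carried both CD3 and CD8 UMIs. These CD3+ CD8+ cells numbered 8966 in WT, 8153 in KO, 9803 in Young and 8252 in Aged, with medians of 6341, 6870, 4510 and 5768 UMIs. CD8 T cell markers (Cd3d, Cd3e, Cd3g, Cd8a, Cd8b1, Trac, Trbc2, Cd2 and Lck) were seen in 62.0% or more of these cells in each library. The CD3 and CD8 genes among them were used to choose the cells, so their presence was in part set in advance. Trac, Trbc2, Cd2 and Lck took no part in that choice. Bfar, the gene targeted in the KO mice, was read at 32.1 CPM (UMIs scaled to the library's total; 30.9 to 33.4) in WT and 22.4 (21.3 to 23.5) in KO, so transcript remained in the library labelled KO. The labels do not name the deleted exons, and these reads may lie outside them. Young and Aged shared 145 cell barcodes and WT and KO shared 20. Some CD3+ CD8+ barcodes also carried at least 2 markers of a non-lymphoid cell type (tumour, fibroblast, endothelial, myeloid, mast or dendritic) among 2000 UMIs. These marked barcodes made up 4.13% in WT, 2.07% in KO, 7.26% in Young and 3.38% in Aged, and leading results are given with and without them.

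The promoters below were chosen because they show the sequence features that separate the S genes from the G2 and M genes. They are RefSeq sequences on GRCm38.p6, each running from 250 bases before to 50 bases after the annotated start, written 5′ to 3′ on the gene's strand. Capitals mark 3 kinds of match on either strand: an E2F element (TTTCCCGC or TTTGGCGC), a CCAAT box (CCAAT) and a CHR element (TTTGAA). The first set belongs to S genes, Mcm3 (chr1:20820263-20820562, minus strand), a helicase subunit, and Pclaf (chr9:65890073-65890372, plus strand), which binds the PCNA clamp.
Mcm3: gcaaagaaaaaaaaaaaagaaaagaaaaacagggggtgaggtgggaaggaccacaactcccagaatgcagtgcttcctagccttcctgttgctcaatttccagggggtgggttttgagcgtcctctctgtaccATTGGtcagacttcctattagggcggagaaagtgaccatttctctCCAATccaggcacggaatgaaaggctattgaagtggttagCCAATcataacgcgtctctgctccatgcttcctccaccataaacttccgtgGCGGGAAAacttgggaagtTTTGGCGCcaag
Pclaf: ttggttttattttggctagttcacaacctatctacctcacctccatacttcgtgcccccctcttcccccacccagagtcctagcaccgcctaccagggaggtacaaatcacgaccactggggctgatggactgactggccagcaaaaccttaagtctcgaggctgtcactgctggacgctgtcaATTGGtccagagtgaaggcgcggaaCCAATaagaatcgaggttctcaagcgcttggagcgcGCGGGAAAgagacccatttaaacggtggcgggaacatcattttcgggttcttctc
The second set belongs to genes of mitosis. Ube2c (chr2:164769679-164769978, plus strand) is a ubiquitin-conjugating enzyme of the anaphase-promoting complex, Cdc20 (chr4:118437294-118437593, minus strand) is its activator, and Ccnb2 (chr9:70421505-70421804, minus strand) is a B-type cyclin.
Ube2c: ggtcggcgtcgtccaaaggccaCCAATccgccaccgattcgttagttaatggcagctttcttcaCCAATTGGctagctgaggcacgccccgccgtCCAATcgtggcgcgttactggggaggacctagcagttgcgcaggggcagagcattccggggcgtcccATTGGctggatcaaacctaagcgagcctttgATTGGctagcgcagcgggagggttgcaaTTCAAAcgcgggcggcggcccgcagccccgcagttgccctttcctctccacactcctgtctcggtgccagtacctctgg
Cdc20: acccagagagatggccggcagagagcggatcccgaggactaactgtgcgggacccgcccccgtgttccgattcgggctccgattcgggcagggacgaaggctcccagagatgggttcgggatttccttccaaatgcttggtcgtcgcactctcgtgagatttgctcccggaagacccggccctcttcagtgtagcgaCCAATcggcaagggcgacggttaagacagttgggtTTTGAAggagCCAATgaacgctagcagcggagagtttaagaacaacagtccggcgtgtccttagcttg
Ccnb2: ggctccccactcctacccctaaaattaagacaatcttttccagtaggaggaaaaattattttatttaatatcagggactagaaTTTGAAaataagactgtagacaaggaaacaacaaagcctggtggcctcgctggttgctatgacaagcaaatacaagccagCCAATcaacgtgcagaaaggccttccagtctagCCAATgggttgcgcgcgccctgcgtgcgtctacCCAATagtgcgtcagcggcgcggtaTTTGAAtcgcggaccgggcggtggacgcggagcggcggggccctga

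The table of promoters held 19 of the 22 S genes and 19 of the 23 G2 and M genes. Mcm4, Gins2, Rfc2, Ccna2, Aurkb, Tpx2 and Stmn1 were not matched. An E2F element was found in 7 of 19 S genes and in 0 of 19 G2 and M genes, against 1.798% of the 27025 genes of the table. A CHR element was found in 4 of 19 S genes and 13 of 19 G2 and M genes, against 20.2% of all genes. CCAAT boxes were found on both sides, in 14 of 19 S genes and 17 of 19 G2 and M genes, against 41.1% of all genes. CHR and CCAAT together were held by 13 of 19 G2 and M genes and 3 of 19 S genes, against 7.97%. In Mcm3 the E2F matches began 20 and 39 bases after the start, and in Pclaf the match began at -5. The CHR match of Ube2c began at -29 and that of Cdc20 at -18, while Ccnb2 had matches at -167 and at 5. These are matches of letters in a fixed window, not shown binding sites, and the absence of a match says only that these letters are not there.

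To call phases at equal depth, each CD3+ CD8+ cell was thinned at random to 2000 UMIs, which left out 80 WT, 45 KO, 611 Young and 201 Aged cells that were shallower. A cell was called G2 and M when at least 3 of the 18 core genes were seen, and S when at least 5 of the 22 S genes were seen and it had no G2 and M call. Most WT cells (78.5%) showed no core gene at all, and 23.2% showed no S gene. The lists separated the calls as a matter of construction: cells called G2 and M held on average 8.99 core UMIs per 2000 in WT, 9.51 in KO, 8.13 in Young and 7.91 in Aged, while cells with neither call held 0.178 to 0.211. Mean S-list UMIs were 7.96 to 9.503 in cells called G2 and M, beside 8.34 to 9.07 in cells called S. Since a cell with many genes of both lists counted as G2 and M, this does not show how long S genes stay on.

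**Figure D1:**
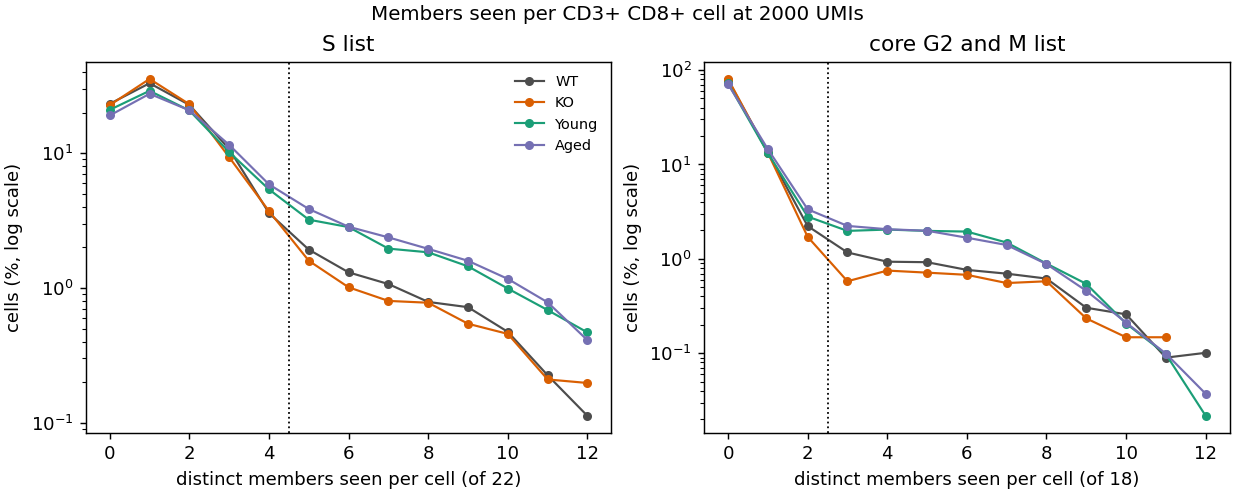
Distribution of the number of S genes (left, of 22) and core G2 and M genes (right, of 18) seen per CD3+ CD8+ cell at 2000 UMIs, as a percentage of cells on a log scale, 1 line per library. The dotted lines mark the call thresholds of 5 and 3 genes; right of the core threshold lie 5.89% of WT, 4.42% of KO, 11.2% of Young and 11.1% of Aged cells.

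In the WT library 798 of 8886 cells (8.98%, 8.39 to 9.59) were called in S or in G2 and M, against 567 of 8108 (6.99%, 6.45 to 7.57) in the KO library. The ratio of these shares, KO over WT, was 0.779 (0.702 to 0.864). S calls made up 3.09% of WT and 2.58% of KO cells, a ratio of 0.833 (0.698 to 0.995). G2 and M calls made up 5.89% of WT and 4.42% of KO cells, a ratio of 0.750 (0.658 to 0.855). At equal depth both phases were thus lower in the KO library, and the interval of the S ratio came close to 1. Without the marked barcodes the cycling shares were 8.46% in WT and 6.78% in KO, a ratio of 0.801 (0.719 to 0.891). Without thinning, with the deeper cells in KO, the same calls gave 34.4% in WT and 34.8% in KO, a ratio of 1.01. The phases then parted: G2 and M calls were 10.8% in WT and 8.32% in KO, and S calls 23.7% and 26.5%. The lower G2 and M share in KO was thus seen with and without thinning, and the lower S share only with it. Scores per cell from scanpy, which called far more cells (52.3% in WT, 29.3% in KO), gave 0.560 (0.538 to 0.582).

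In the transferred cells, 1647 of 9192 Young cells (17.9%, 17.1 to 18.7) and 1528 of 8051 Aged cells (19.0%, 18.1 to 19.9) were called, and the ratio Aged over Young was 1.06 (0.995 to 1.13). S calls were 6.68% in Young and 7.90% in Aged, a ratio of 1.18 (1.06 to 1.32), whereas G2 and M calls were 11.2% and 11.1%, a ratio of 0.986 (0.906 to 1.07). Per cell called G2 and M there were 0.594 S cells in Young and 0.713 in Aged, beside 0.526 in WT and 0.584 in KO. Without the marked barcodes the cycling shares were 17.2% and 19.0%, a ratio of 1.10 (1.03 to 1.18). The direction in this pair depended on the processing: at 4000 UMIs per cell the ratio was 0.948, without thinning it was 1.29, and with scanpy scores (34.5% of Young and 23.5% of Aged cells called) it was 0.681 (0.649 to 0.715).

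Called cells were the deeper cells of each library before thinning. Their median was 14332 UMIs in WT against 6116.5 in cells with neither call, and 9318 against 4301 in Young. Marked barcodes were called more often than the rest in WT (21.0% against 8.46%), KO (17.3% against 6.78%) and Young (26.5% against 17.2%), and less often in Aged (17.3% against 19.0%). Tumour or epithelial markers summed to 304 CPM in called WT cells against 90.5 in the others, and to 93.3 against 91.4 in Aged. Mast cell markers summed to 694 CPM in called WT cells against 282 in the others. The cause of this excess was not tested. A level of false calls could not be set from other cell types. Barcodes without CD3 UMIs that carried mature dendritic markers were called in 22.7% to 46.9% of cases, and 40.0% to 82.4% of these barcodes also had at least 3 tumour markers. WT barcodes without CD3 UMIs that carried mast cell markers were called in 31.9% of 47 cases. Barcodes with at least 3 tumour markers, with or without CD3 UMIs, were called in 31.5% to 53.2%.

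Cells were then gated on Tcf7, Pdcd1 and Havcr2, each positive with at least 1 of the 2000 UMIs. Tcf7+ cells were called less often than Tcf7- cells in each of the 4 libraries: 5.04% against 9.75% in WT, 4.26% against 7.51% in KO, 13.1% against 19.3% in Young and 12.5% against 20.1% in Aged. The ratios were 0.518 (0.410 to 0.654), 0.568 (0.433 to 0.745), 0.677 (0.600 to 0.764) and 0.622 (0.532 to 0.726). In WT, S calls made up 0.760% of Tcf7+ and 3.55% of Tcf7- cells, a ratio of 0.214 (0.1175 to 0.391). The same ratio for S calls was 0.590 in KO, 0.643 in Young and 0.597 in Aged. With gates on all UMIs of a cell, the Tcf7+ over Tcf7- ratio for either call stayed below 1 in WT and Aged. It was 0.772 (0.668 to 0.892) in WT and 0.749 (0.673 to 0.833) in Aged. In KO and Young the ordering was then lost, at 1.02 (0.862 to 1.19) and 1.01 (0.920 to 1.10). Without the marked barcodes the ratio for either call was 0.544, 0.586, 0.674 and 0.626 at equal depth.

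For the receptors of exhaustion the equal-depth gates gave smaller gaps. Pdcd1+ over Pdcd1- ratios of the cycling share were 0.974 (0.849 to 1.12) in WT, 1.22 (1.04 to 1.44) in KO, 1.01 (0.916 to 1.11) in Young and 1.28 (1.17 to 1.40) in Aged. Havcr2+ over Havcr2- ratios were 1.32 (1.08 to 1.60), 0.976 (0.745 to 1.28), 1.18 (1.02 to 1.37) and 1.19 (1.06 to 1.33). With gates on all UMIs these ratios were 1.57 to 2.28 for Pdcd1 and 1.85 to 2.52 for Havcr2.

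Comparing KO with WT gate by gate, the lowest ratio among the 6 gates with called cells in both libraries was in Tcf7- Pdcd1- Havcr2+ cells, with 26 of 378 KO cells called (6.88%) against 64 of 423 WT cells (15.1%), a ratio of 0.455 (0.294 to 0.702). With gates on all UMIs the same gate gave 6.16% and 10.6%, a ratio of 0.583 (0.341 to 0.995). Pdcd1- cells had a ratio of 0.709 (0.620 to 0.812) and Pdcd1+ cells one of 0.892 (0.759 to 1.05). The intervals of the Pdcd1- and Pdcd1+ cells overlap, and whether gates differ in their ratio was not tested. Among Tcf7+ cells the phases went opposite ways. S calls made up 1.63% of KO and 0.760% of WT cells, a ratio of 2.14 (1.04 to 4.42). G2 and M calls made up 2.64% and 4.28%, a ratio of 0.615 (0.408 to 0.928). The S ratio of Tcf7+ cells rests on few called cells. It is 1 of many gate and call comparisons, none of them tested. Weighting both libraries to the same mix of the 8 gates gave 0.776 for either call, close to the 0.779 of the libraries as they are. In the gates with fewest cells, 0 of 26 WT cells that were Tcf7+ Pdcd1+ Havcr2+ were called, which by the limit of 3 counts allows a share of up to 11.5% (exact upper bound 13.2%). In KO, 0 of 40 Tcf7+ Pdcd1- Havcr2+ cells were called, which by the same limit allows up to 7.50% (exact upper bound 8.81%), beside 4 of 39 WT cells in that gate (10.3%, 2.87 to 24.2).

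Between Aged and Young, the Pdcd1+ gate gave 21.8% against 18.1%, a ratio of 1.21 (1.09 to 1.34), and the Pdcd1- gate 17.0% against 17.9%, a ratio of 0.952 (0.878 to 1.03). With gates on all UMIs these ratios were 1.07 and 0.736, so the level moved while the order of the gates did not. At equal gate mix the ratio of the whole population was 1.01.

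**Figure D2:**
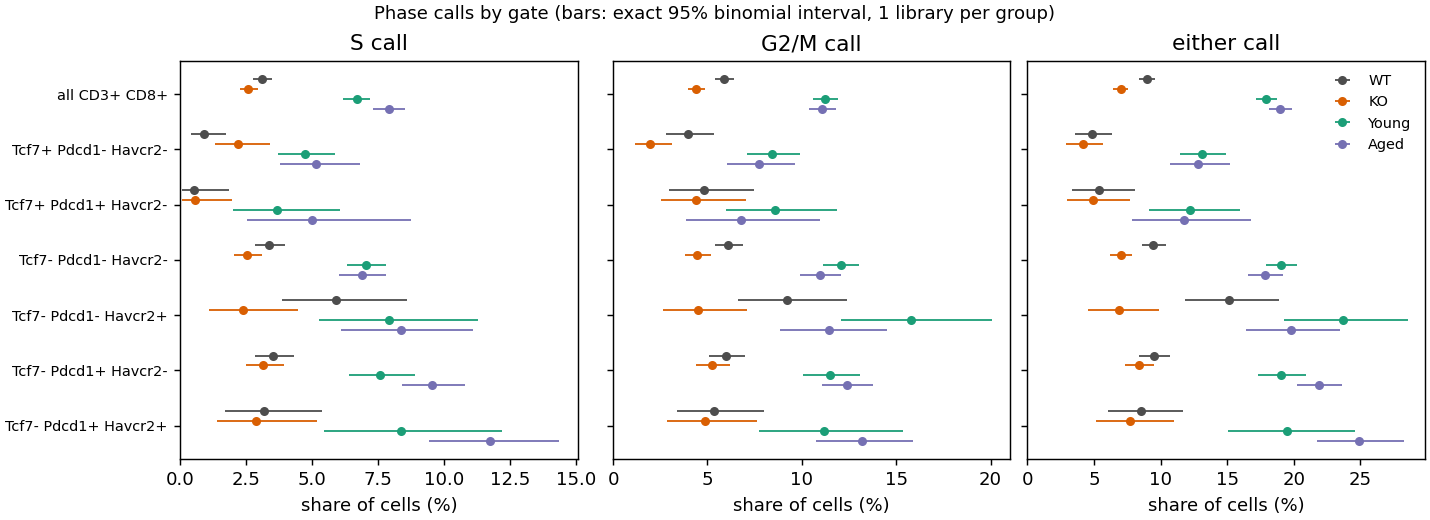
Share of CD3+ CD8+ cells called in S and in G2 and M phase (x axis, percent) or by either call, in gates on Tcf7, Pdcd1 and Havcr2 at 2000 UMIs per cell, with exact 95% binomial intervals, 1 library per group. The Tcf7+ Havcr2+ gates hold few cells and are not plotted. Among the gates shown, the Tcf7+ points lie left of the Tcf7- points in each library and panel, and the WT Tcf7- Pdcd1- Havcr2+ points (5.91% S, 9.22% G2 and M) lie right of the KO points (2.38% and 4.50%).

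Levels of the members were next compared on all UMIs of the CD3+ CD8+ cells, as CPM summed over the library, and a member counted as measured with 20 or more UMIs in the pair and 10 or more CPM in at least 1 library. Here fewer dividing cells and less RNA per dividing cell cannot be told apart, and the members' CPM are not independent of the calls above, which were made from UMIs of the same cells. KO over WT, the S genes had a median log2 ratio of -0.12 and the G2 and M genes one of -0.38, beside -0.048 over all 7415 genes measured. Of the 21 G2 and M genes measured, 20 were below 1 and 4 were at least 1.5 times lower in KO, where 3.09% of all measured genes were that much lower. Of the 20 S genes measured, 17 were below 1 and 0 passed 1.5 times in either direction. With the all-gene median below 0, most measured genes lay below 1 as well. At least 1.5 times higher in KO were 0 members, against 0.607% of all genes.

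The helicase genes were slightly lower in KO, 7 of 7 measured. Mcm6, a subunit of the helicase ring, was read at 93.0 CPM in WT and 76.4 in KO, a ratio of 0.822 (0.793 to 0.852). Mcm2 gave 0.849, Mcm7 0.881, Gins2 (a part of the active helicase) 0.882, Mcm4 0.915, Mcm5 0.919 and Mcm3 0.941. Cdc6, which loads the helicase, and Cdc45, which activates it, fell short of 10 CPM and gave 0.810 and 0.845. Around the clamp, Fen1, which trims Okazaki fragments, was at 0.856 and Pclaf at 0.935, while Pcna (182 CPM in WT, 180 in KO) and Rfc2, a subunit of its loader, were at 0.990 and 0.989 with intervals that include 1. For nucleotide supply, Rrm2 and Dut, which keeps uracil out of DNA, were both at 0.864, Tyms at 0.910 and Rrm1 at 0.938.

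The genes of replication chromatin did not move together. Nasp, a histone chaperone, was higher in KO, at 142 against 127 CPM, a ratio of 1.12 (1.09 to 1.15). Slbp, which binds the end of histone mRNA, was at 148 against 136 CPM, a ratio of 1.09. Hells, a chromatin remodeller, was level at 36.7 CPM in both, Clspn, of the replication checkpoint, was at 0.919 and Uhrf1, which copies DNA methylation, at 0.837. In WT and KO, Nasp and Slbp are also the S genes with the largest share of UMIs outside called cells, as given further on.

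Genes of entry into and exit from mitosis held the lowest ratios in KO. Ccnb1, the cyclin B1 that drives entry into mitosis, was read at 12.7 CPM in WT and 6.32 in KO, a ratio of 0.496 (0.442 to 0.556). Ube2c was at 85.2 CPM in WT and 50.5 in KO (0.593, 0.569 to 0.618), and its partner Cdc20 at 13.6 and 8.33 (0.611, 0.551 to 0.677). Cenpf, a kinetochore protein, was at 44.2 and 28.1 (0.635, 0.600 to 0.671). These 4 are the members at least 1.5 times lower, and the promoters of Ube2c and Cdc20 are printed above. Aurka, the kinase of the spindle poles, gave 0.581 (6.72 CPM in WT, 3.91 in KO), below the CPM limit.

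Close behind came Birc5 (survivin) at 0.674, Ccnb2 at 0.683, Cdk1, the kinase that the cyclins activate, at 0.686 and Aurkb, which corrects faulty attachments, at 0.710. Cks1b, a Cdk subunit, was at 0.715, the spindle factor Tpx2 at 0.745, Cdca8, a partner of Aurkb, at 0.763, Ccna2 (cyclin A2) at 0.765 and the motor Cenpe at 0.767. The gap was small for the genes that coat or untangle chromosomes. Mki67 was read at 92.8 CPM in WT and 83.5 in KO (0.900, 0.869 to 0.932) and Top2a at 144 and 133 (0.925). Nusap1 gave 0.899, the spindle motor Kif11 0.937, Bub1 0.843 (below the CPM limit), Tubb4b 0.816, Cks2 0.925 and Stmn1 0.930. Hmgb2, a chromatin protein, ran the other way, at 1345 CPM in WT and 1604 in KO, a ratio of 1.19 (1.183 to 1.203).

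Without the marked barcodes the G2 and M median was -0.24, with 22 of all 23 genes still below 1, and the S list had 19 of 22 below 1. The median over all measured genes was then -0.037. Ccnb1, then below the CPM limit, gave 0.623, Ube2c 0.660, Cdc20 0.732 and Cenpf 0.797, so part of the gap went with the barcodes bearing non-lymphoid markers. Of the 20 G2 and M genes then measured, 1 (Ube2c) stayed at least 1.5 times lower, and Ccnb1 was that much lower but not measured. Among all genes 0.349% were that much lower in this set and 0.587% that much higher. Hmgb2 was at 1.17 and Mcm6 at 0.803. The summed tumour or epithelial markers were 457 CPM in WT and 197 in KO, the fibroblast markers 286 and 46.2 and the mast cell markers 848 and 323 before those barcodes were taken out.

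In the transferred cells the pattern was another. Aged over Young, the S genes had a median log2 ratio of 0.21 and the G2 and M genes one of 0.033, beside 0.083 over all 7938 genes measured. Of the 22 S genes 17 were above 1, and 14 of the 22 G2 and M genes measured were. With the all-gene median above 0, most measured genes lay above 1 as well, and the G2 and M median was below the all-gene one. At least 1.5 times higher in Aged were 0 members, against 2.62% of all genes, and at least 1.5 times lower 0, against 3.83%.

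The helicase genes were higher in Aged in 9 of 9. Mcm6 was read at 157 CPM in Young and 209 in Aged, a ratio of 1.33 (1.29 to 1.36), and Cdc6 at 13.0 and 16.9 (1.30, 1.18 to 1.42). The others ran from 1.04 for Mcm4, which was 0.978 under median-of-ratios scaling, to 1.22 for Mcm7. Of the chromatin genes, Hells was at 39.6 CPM in Young and 54.8 in Aged (1.38, 1.31 to 1.46) and Uhrf1 at 37.2 and 49.6 (1.33, 1.26 to 1.41), while Nasp gave 0.919 and Slbp 0.928. Dut was at 1.26, Rrm2 at 1.07, Rrm1 at 1.06 and Tyms at 0.979. Rrm2 and Rrm1 turned to 0.8300 and 0.883 without barcodes bearing 2 markers of any 1 other cell type. That filter, applied to all UMIs of a cell, took out 45.1% of called and 20.8% of other cells in Young, and 54.8% and 26.8% in Aged. Its lists also hold genes such as Bst2, read at 476 CPM in Young and 368 in Aged CD3+ CD8+ cells. Around the clamp, Rfc2 was at 1.18 and Fen1 at 1.10 (1.04 to 1.15), but Pcna at 0.958 and Pclaf at 0.922.

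Among the G2 and M genes the highest ratio was that of Ccnb1, at 13.6 CPM in Young and 19.0 in Aged, a ratio of 1.40 (1.28 to 1.53). Aurkb was at 1.23, Cdc20 and Cenpe at 1.16 and Nusap1 at 1.10. Without barcodes bearing 2 markers of any 1 other cell type, these 4 turned to 0.978, 0.925, 0.834 and 0.859. Ube2c (136 CPM in Young, 139 in Aged), Ccna2, Ccnb2, Cdca8, Kif11, Bub1 and Cenpf had intervals that include 1. Lower in Aged were Cks2, at 262 CPM in Young and 208 in Aged (0.795, 0.777 to 0.814), Birc5 at 0.870, Stmn1 at 0.890 and Cks1b at 0.932. Mki67 gave 1.08, Top2a 1.09 and Cdk1 1.08, and without barcodes bearing markers of any other type they gave 0.8485, 0.8995 and 0.865. Without the marked barcodes Ccnb1 gave 1.65 (1.49 to 1.83), Hells 1.34, Uhrf1 1.345 and Cks2 0.756, and 17 of 22 S genes and 17 of 23 G2 and M genes were above 1. The median log2 ratio over all measured genes in this set was 0.085. Ccnb1 was then the 1 member at least 1.5 times higher, against 3.14% of all genes, and 0 were that much lower, against 1.82%.

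**Figure D3:**
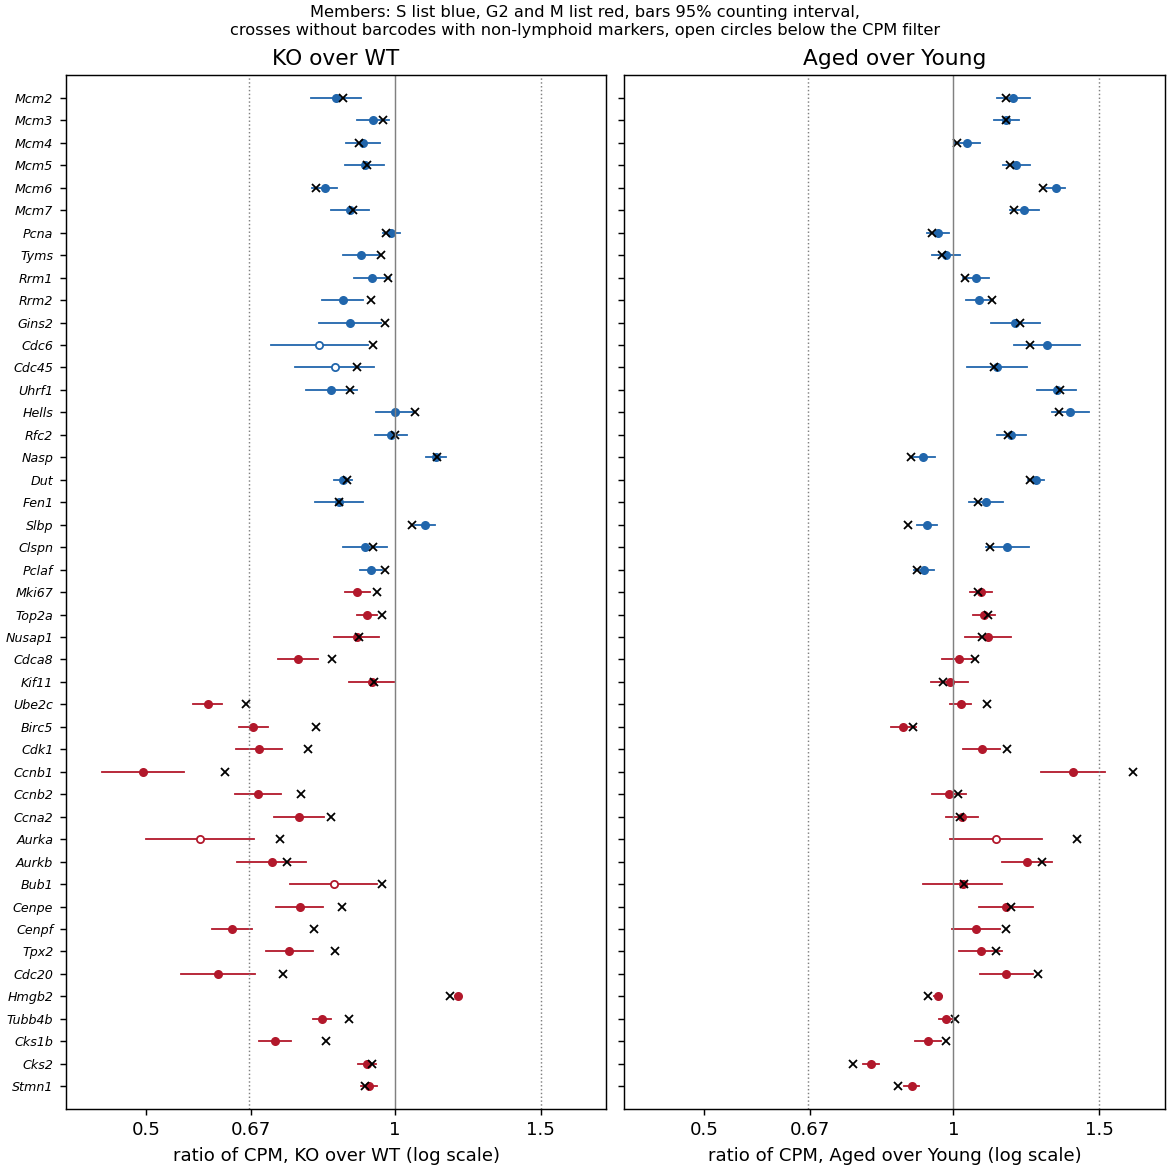
Ratio of CPM (x axis, log scale) of the 45 members, KO over WT and Aged over Young, with 95% counting intervals; S genes blue, G2 and M genes red, open circles below the CPM limit, crosses without barcodes with non-lymphoid markers. Ccnb1 is at 0.496 in the first pair and 1.40 in the second, and Hmgb2 is the member farthest above 1 in KO over WT, at 1.19.

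Levels were also compared within called cells, on thinned UMIs and with each member left out of the calls used for it. A call needs a minimum of member genes seen, so cells with less of these RNAs are not in the called set, and number and level per cell are not separated by it. In called cells without the marked barcodes, KO over WT, the S genes had a median ratio of 1.10, with 18 of 22 above 1 and intervals above 1 for 6 of them. Over all 7586 genes measured in these cells the median was 0.982, with 46.5% above 1, and intervals lay above 1 for 4.67% and below 1 for 5.39%. Uhrf1 was at 1.45 (1.10 to 1.92) and Mcm2, the lowest, at 0.802. The G2 and M genes had a median of 0.942, with 14 of 23 below 1. Ccnb1 was the lowest at 0.537 (0.293 to 0.946), from 18 UMIs in KO and 45 in WT, and Ube2c gave 0.811 (0.695 to 0.946), whereas Top2a was at 1.29 (1.16 to 1.43).

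For Aged over Young, called cells without the marked barcodes had an S median of 0.989, with 8 of 22 genes above 1. The G2 and M median was 0.915, with 18 of 23 genes below 1 and 9 intervals below 1. Over all 7920 genes measured in these cells the median was 1.05, with 39.7% below 1, and intervals lay below 1 for 9.2% and above 1 for 14.9%. Ccnb1 was again higher in Aged, at 1.67 (1.22 to 2.28). Cks2 was at 0.698, Pclaf at 0.741 and Stmn1 at 0.754. The higher levels of Hells and Mcm6 over the whole Aged library came in part from uncalled cells: Mcm6 was at 101 CPM in uncalled Young cells and 152 in uncalled Aged cells, and Hells at 18.6 and 25.6.

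How closely a member marks dividing cells differed widely. For each member, the call was repeated without it and its UMIs in called and other cells were counted. At least 1.5 times higher in called cells were 45 of 45 members in each library, where 18.7%, 18.6%, 15.6% and 13.7% of the other genes were so in WT, KO, Young and Aged. Members share their phase with the genes that made the calls, so this is a description of how tightly they go together. Ccna2 was the most restricted member in WT and KO: called cells held 94.3% of its UMIs in WT, 95.8% in KO, 93.3% in Young and 93.1% in Aged. Among the S genes Pclaf had 89.4% to 90.1% over the 4 libraries. In single cells, Pclaf was seen in 53.3% of called WT cells and 0.864% of the others, and Mki67 in 46.4% and 2.09%.

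Other members had most of their UMIs in cells with no call. Nasp had 15.3% of its UMIs in called cells in WT and 11.6% in KO, and Slbp 15.7% and 12.9%. Cks2, at 17.1% and 11.9%, and Mcm6, at 23.0% and 19.5%, were alike in this. Hmgb2, seen in 94.99% of called and 75.8% of other WT cells, had 27.0% of its UMIs in called WT cells and 19.1% in called KO cells. The members with intervals above 1 in KO over WT, Hmgb2, Nasp and Slbp, are thus among those least tied to called cells. In WT, 26 of 45 members had over 50% of their UMIs in called cells, as did 24 in KO, 32 in Young and 31 in Aged.

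**Figure D4:**
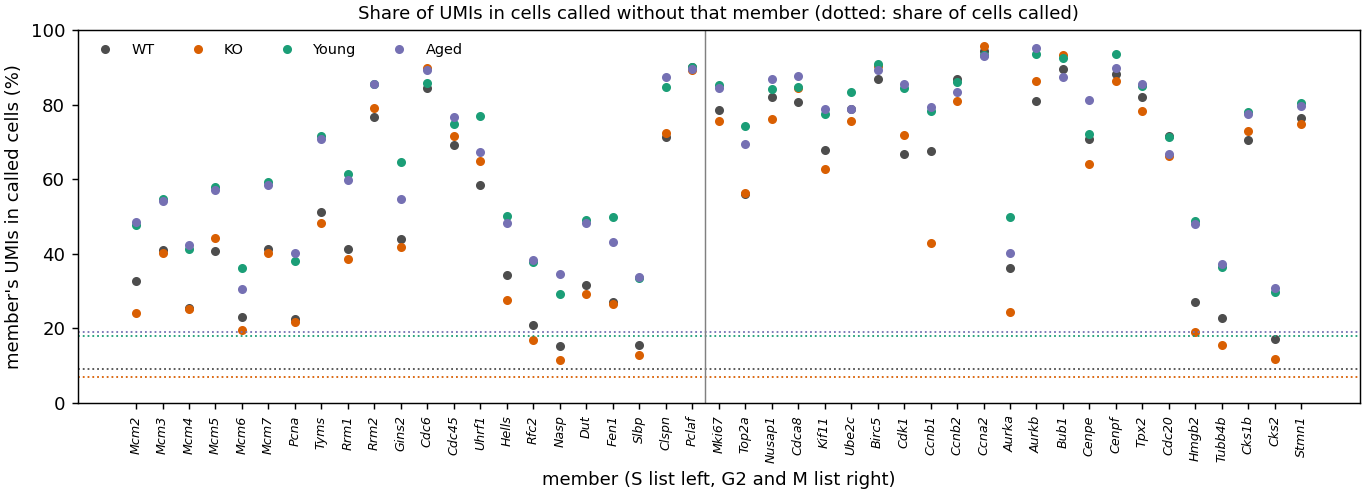
Percentage of each member's UMIs (y axis) that lie in cells called without that member, S genes on the left and G2 and M genes on the right, 1 point per library, with the share of cells called as dotted lines. Ccna2 and Pclaf lie near the top in each library, and Nasp, Slbp, Cks2 and Mcm6 near the bottom, still above the dotted lines.

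The order of the phases showed in the ratio of levels in cells called G2 and M over cells called S. All 23 G2 and M genes were above 1 in each of the 4 libraries, including the 5 that took no part in the calls, which ran from 1.99 for Cks2 in KO to 3.75 for Cks1b in KO. Ube2c gave 18.0 in WT, 24.7 in KO, 13.4 in Young and 15.8 in Aged, and Cenpf 16.5, 18.8, 17.3 and 13.6. Mki67 had lower ratios, at 4.19, 6.82, 4.97 and 4.56. Of the 22 S genes, Mcm2, Mcm3, Mcm5, Mcm6, Gins2 and Rfc2 were below 1 in each library, with Mcm2 at 0.594, 0.6704, 0.465 and 0.553. Pcna, Tyms, Rrm1, Rrm2, Cdc45, Uhrf1, Fen1, Slbp, Clspn and Pclaf were above 1 in each, with Rrm2 at 2.27, 2.12, 3.00 and 2.61. Cells called S had no G2 and M call by construction, so a cell with many genes of both lists counted as G2 and M.

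Genes of the same pathway that are no members followed the calls. Of further S phase genes measured, 29 of 33 in WT, 31 of 32 in KO, 31 of 33 in Young and 31 of 33 in Aged were at least 1.5 times higher in called cells. Dbf4, the partner of the kinase that fires origins, was the lowest of this list (1.18, 0.898, 1.02 and 1.25). Of further G2 and M genes, 35 of 36, 34 of 35, 34 of 35 and 35 of 36 were that much higher. Pttg1, securin, was the exception, at 0.647, 0.735, 0.801 and 0.854. All 11 histone genes measured were higher in each library. Of the E2F, pocket protein and DREAM genes, 8, 10, 8 and 8 of 12 were higher, led by E2f8, a repressor that E2F induces (31.3 CPM in called WT cells, 0.618 in the others).

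Over the pairs, further S genes had a median log2 ratio of -0.14 KO over WT, with 21 of 25 below 1 and 0 past 1.5 times, and 0.15 Aged over Young, with 26 of 29 above 1. The medians over all measured genes were -0.048 and 0.083. Further G2 and M genes had -0.22, with 21 of 24 below 1 and 2 at least 1.5 times lower, and 0.15, with 26 of 30 above 1. Anln, a scaffold of the cleavage furrow, was the lowest of these in KO over WT, at 11.02 CPM in WT and 5.54 in KO (0.503). Plk1, a mitotic kinase, was the highest in Aged over Young, at 10.8 and 16.4 CPM. Of 12 cell cycle inhibitors measured, 6 were above and 6 below 1 in KO over WT, with a median log2 ratio of -0.011. The highest was Cdkn1b, the inhibitor p27 that holds cells in G1, at 101 CPM in WT and 140 in KO (1.39). The lowest was Cdkn2d, at 0.7575. In Aged over Young 5 were above and 7 below 1, with a median of -0.075. There Cdkn2a, which encodes p16 and ARF, was the highest, at 30.5 CPM in Young and 56.4 in Aged (1.85). Btg2 was the lowest, at 0.728. Ccnd1, a G1 cyclin, was at 43.5 CPM in WT and 16.2 in KO, and it moved with the marked barcodes: called over other WT cells gave 3.64, and 0.954 without them.

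Called cells also differed from other cells in genes of T cell state, which took no part in the calls. Of 12 genes of progenitor and naive T cells, 10 in WT, 6 in KO, 5 in Young and 6 in Aged were at least 1.5 times lower in called cells, where 9.47%, 10.1%, 7.60% and 6.97% of all non-member genes were. Without the marked barcodes these counts were 9, 6, 4 and 6. Il7r, the receptor for the survival cytokine IL-7, was at 160 CPM in called and 543 in other WT cells, a ratio of 0.294 (0.259 to 0.333), with 0.347 in KO, 0.454 in Young and 0.5002 in Aged. S1pr1, which lets T cells leave tissue, gave 0.296, 0.511, 0.667 and 0.488. Tcf7 itself, the gene of the gates above, gave 0.524, 0.551, 0.685 and 0.611. The highest of the list were Xcl1, a chemokine, at 1.34 in WT, 1.962 in KO and 1.09 in Aged, and Id3, a transcriptional regulator, at 1.34 in Young.

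The exhaustion genes were spread around 1, with median log2 ratios of 0.19, -0.10, -0.041 and 0.15 over 11 genes in WT, KO, Young and Aged. Cd101 was the lowest of them in WT and KO, at 0.435 and 0.441, and Tigit in Young and Aged, at 0.638 and 0.735. The highest were Cd38 in WT, at 1.24, Tnfrsf9, the costimulatory receptor 4-1BB, in KO and Young, at 1.27 and 1.54, and Entpd1 in Aged, at 1.34. Among 12 effector genes, Ccl5, a chemokine of memory and effector T cells, was the lowest in each library: 1969 CPM in called and 5134 in other WT cells (0.384, 0.370 to 0.397), and 0.333, 0.338 and 0.343 in KO, Young and Aged. The highest were Klrg1, a receptor of effector cells, at 2.66 in WT (23.2 against 8.72 CPM) and 1.35 in KO, Gzma, a granzyme, at 1.58 in Young and Prf1, perforin, at 1.18 in Aged. Of the 3 lists, Klrg1 in WT, Xcl1 in KO and Tnfrsf9 and Gzma in Young were the genes at least 1.5 times higher. Of all non-member genes, 18.7% in WT, 18.6% in KO, 15.6% in Young and 13.7% in Aged were that much higher. These shares are larger than those in the 3 lists. Gzmb, granzyme B, was near level, at 1.13, 0.977, 1.10 and 1.11. Tpi1, of glycolysis, was higher in called cells at 2.11, 2.03, 2.21 and 2.19. The CD8 T cell markers stayed between 0.705 and 1.09. Called cells differed from the others in depth before thinning as given above, and the part of depth in these differences was not tested beyond thinning.

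**Figure D5:**
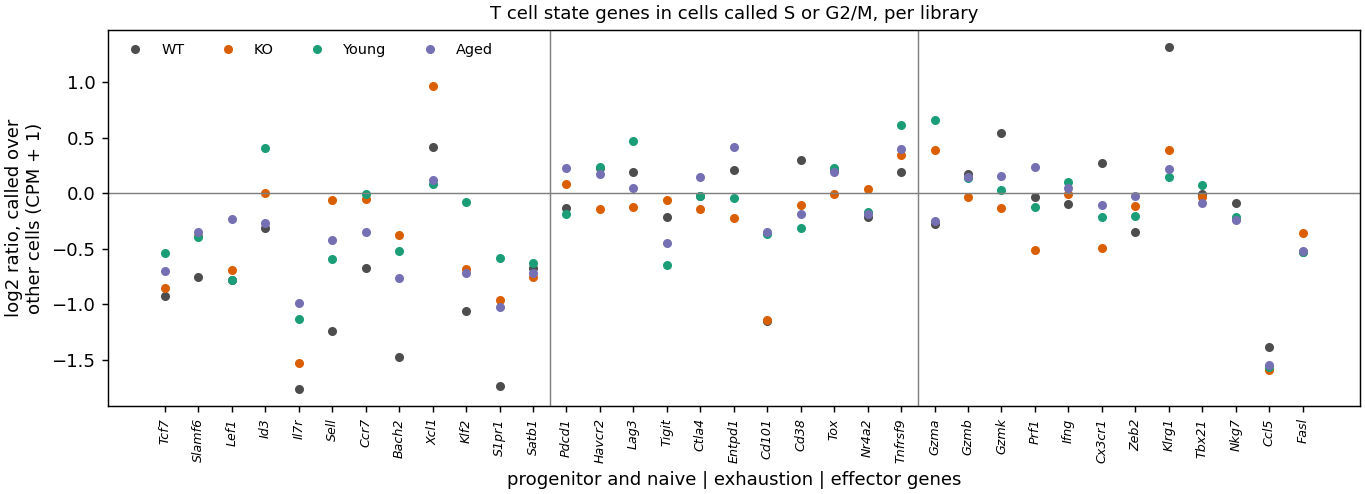
log2 ratio of CPM (each plus 1) in called over other cells at 2000 UMIs (y axis) for genes of progenitor and naive, exhausted and effector T cells, 1 point per library. Il7r and S1pr1 lie below 0 in each library, and Ccl5 lies lowest among the effector genes, at 0.333 to 0.384 times the level of other cells.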

How the data were processed

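Single-cell RNA-seq of CD45+ CD8+ cells sorted from MB49 tumours gave 4 count matrices, 1 per group. The authors deposited UMI counts per gene and barcode that were made, per the file headers, by Cell Ranger 6.1.1 (first pair) or 7.1.0 (second pair). Of the tools in the submitters' processing notes, Seurat is given as 3.2.3 and Cell Ranger as 6.0.0, with mm10 as the build. Filtered matrices were used as deposited, no doublet caller was run, and the 4 libraries held 68017515 to 85401443 UMIs, so the precision of a share is set by 8051 to 9192 thinned cells.

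From these counts, the filters and calls given in the report were computed with Python 3.11.15, numpy 2.4.6, scipy 1.17.1 and pandas 2.3.3. Thinning drew 2000 UMIs per cell without replacement. Shares have exact Clopper-Pearson intervals, ratios of shares log-normal intervals and ratios of CPM exact conditional binomial intervals, all at 95% and for counting error only, since droplet cells of 1 library are not replicates. A log2 ratio is log2 of CPM plus 1 in both libraries, which understates the ratio of low genes. The calculation of ratios and calls was tested on simulated data. Named are all 45 members and, of the other lists, the highest and lowest gene by ratio where the list is described; Gzmb, Tcf7 and S1pr1 are given in all 4 libraries after their values were seen. The members and lists were chosen with earlier results of these data known. Promoters came from the RefSeq table of GRCm38.p6, the build that mm10 names. Alternatives covered the thinning depth and seed, call thresholds, scanpy 1.11.5 scores, populations, normalization, filter, pseudocount and weighting. Leaving out barcodes with non-lymphoid markers was chosen after seeing the data.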

Additional observations from a re-analysis of the deposited data

How the results depend on the processing

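Values are given against the share ratios 0.779 (KO over WT) and 1.06 (Aged over Young), the same at equal gate mix (0.776 and 1.01), and the list medians. Without thinning, the KO over WT ratios became 1.01 and 0.998 at equal gate mix, and the Aged over Young ratios 1.29 and 1.08. Looser calls gave 0.868 and 0.866 for KO over WT, and scanpy scores, which called far more cells, gave 0.560 and 0.560 there and 0.681 and 0.657 for Aged over Young. Leaving out the 8% of cells with most UMIs gave 0.697 for KO over WT. For Aged over Young, 4000 UMIs per cell gave 0.948 and 0.882, leaving out barcodes with 2 markers of any 1 other cell type (24.7% to 31.5% of cells) gave 0.9501 and 0.911, and gates from all UMIs gave 0.861. The G2 and M median of KO over WT (-0.38) was -0.28 with a pseudocount of 10, -0.50 over all kept barcodes, -0.27 without markers of any other type, -0.24 without non-lymphoid markers and -0.51 without the deepest 8%, where the S median (-0.12) was -0.25. The S median of Aged over Young (0.21) was 0.13 with median-of-ratios factors, 0.14 over all kept barcodes, 0.045 without markers of any other type, 0.11 without the deepest 8%, 0.13 as a mean of per-cell CPM and 0.13 with equal gates. The G2 and M median there (0.033) was -0.048 with median-of-ratios factors, -0.27 without markers of any other type, -0.11 without the deepest 8% and -0.039 per cell. The cause was not tested in any of these. Without markers of any other type, the all-gene median of Aged over Young was 0.073, above the S median of 0.045. Under the other alternatives named for that S median, the all-gene median ran from -0.0019 to 0.082 and lay below it. The filter on markers of any other type took out 45.1% to 59.3% of called and 20.8% to 29.2% of other cells over the libraries. Among members with intervals off 1, those that changed direction in KO over WT were Gins2, Kif11 and Bub1, each without markers of any other type. In Aged over Young, 13 members changed direction without markers of any other type (Mcm4, Rrm1, Rrm2, Cdc45, Clspn, Mki67, Top2a, Nusap1, Cdk1, Aurkb, Cenpe, Tpx2 and Cdc20), 11 without the deepest 8% and up to 4 under each of the other alternatives, Mcm4 under 5 in all. No paired analysis was possible because each group has 1 library and the labels give no replicate numbers. Depth limits the gates with few cells and members near 10 CPM, such as Ccnb1, Aurka and Bub1.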

Other observations

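In the Young and Aged libraries, the cycling share differed between cells grouped by the T cell receptor Vβ segment they carry, over 15 and 14 segments with at least 150 cells. In Young, cells with Trbv17 were called in 44.4% of 178 cases (37.0 to 52.0), cells with Trbv19 in 33.1% of 786 and cells with Trbv29 in 31.4% of 239, against 10.8% of 1540 cells with Trbv26. In Aged, cells with Trbv15 were called in 28.5% of 540 cases and cells with Trbv12-1 in 22.6% of 2053, against 8.77% of 901 cells with Trbv1. The Aged cells with Trbv17, Trbv19 and Trbv29 were at 18.3%, 17.6% and 15.9%, and the Young cells with Trbv12-1 at 14.8%. Clones were not analysed here. The segments were chosen after their values were seen.

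Cells showing UMIs of more than 1 Vβ segment at 2000 UMIs made up 17.6% of called and 14.45% of other cells in Young, and 13.7% of called and 15.2% of other cells in Aged. Before thinning, a stricter rule was used, which asked for more than 1 UMI of each of more than 1 segment. By that rule 26.0% of called and 12.25% of other cells were counted in Young, and 26.8% and 14.0% in Aged. The values before and after thinning are therefore not the same measure.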
